A study of Homo sapiens with 7 samples.

Results

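The genes described are 10 BMP response genes: the inhibitor of DNA binding genes ID1, ID2, ID3 and ID4, the homeobox genes MSX1 and MSX2, the signal transducer SMAD1, and the pathway inhibitors SMAD6, SMAD7 and BAMBI. They were chosen by name, with earlier results of these data known. Each name matched 1 of the 22670 genes in the deposited files, of which 20187 lie on chromosomes. RNA-seq values came from 7 libraries of SEES-3 human embryonic stem cells (hESCs), a pluripotent line, with 1 library per condition. Both lines constitutively expressed the reverse Tet-transactivator and carried a doxycycline (Dox)-inducible transgene with IRES-βgeo, inserted by piggyBac and selected in stable clones with puromycin. The transgene of the JMJD3c-hESCs is the catalytic domain of JMJD3 (KDM6B), an enzyme that removes methyl groups from lysine 27 of histone H3, and that of the JMJD3c mut-hESCs is the same domain with a point mutation that abolishes its activity. JMJD3c-hESCs were sampled without Dox (Day 0) and after 1, 2, 3 and 4 days of Dox at 1 µg/ml, and JMJD3c mut-hESCs without Dox and at Day 4 of Dox. All cells were grown without feeders in maintenance medium, and how many clones stood behind a library is not given in the sources used here. The question was which of these genes changed in expression when the active enzyme was induced, and whether the inactive form gave the same changes.

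Bone morphogenetic proteins (BMPs) are secreted ligands that bind paired serine-threonine kinase receptors, which phosphorylate SMAD1, SMAD5 and SMAD9. These SMADs join SMAD4 in the nucleus and bind the regulatory regions of target genes, among which the ID genes are direct targets in many cell types. ID proteins lack a DNA-binding region and hold basic helix-loop-helix factors away from DNA, MSX proteins are homeobox repressors of early mesoderm, neural crest and limb, and SMAD6, SMAD7 and BAMBI are induced by the pathway and inhibit it. In human pluripotent cells, BMP signalling is known for driving exit from pluripotency toward mesendoderm and extraembryonic fates.

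Promoter windows of the 10 genes were taken from RefSeq (build GRCh38.p14, 250 bases before to 50 after the start), which gave 16 windows, of which SMAD1 had 5 and SMAD7 had 3. They were searched for GGCGCC, a GC-rich SMAD element that reads the same on both strands, and for GTCT, the short SMAD box, on either strand, and no match of one motif can overlap a match of the other. The windows printed, on the strand of the gene, are that of BAMBI, which alone was higher in each successive library of the time course, and those of ID1 and ID3, the most abundant of the ID genes, of which ID3 was called up and ID1 was not. Capitals mark GGCGCC.
BAMBI: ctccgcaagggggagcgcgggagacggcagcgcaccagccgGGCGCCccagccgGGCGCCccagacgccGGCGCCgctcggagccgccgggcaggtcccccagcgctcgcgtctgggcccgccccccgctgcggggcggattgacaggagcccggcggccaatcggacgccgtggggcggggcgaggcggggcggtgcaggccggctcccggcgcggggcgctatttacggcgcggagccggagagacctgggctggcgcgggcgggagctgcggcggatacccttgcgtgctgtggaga
ID1: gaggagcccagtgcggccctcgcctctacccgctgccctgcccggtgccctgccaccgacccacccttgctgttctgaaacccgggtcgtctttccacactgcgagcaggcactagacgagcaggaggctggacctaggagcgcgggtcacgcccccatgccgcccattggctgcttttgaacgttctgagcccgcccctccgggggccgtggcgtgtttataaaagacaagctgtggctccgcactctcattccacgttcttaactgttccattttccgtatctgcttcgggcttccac
ID3: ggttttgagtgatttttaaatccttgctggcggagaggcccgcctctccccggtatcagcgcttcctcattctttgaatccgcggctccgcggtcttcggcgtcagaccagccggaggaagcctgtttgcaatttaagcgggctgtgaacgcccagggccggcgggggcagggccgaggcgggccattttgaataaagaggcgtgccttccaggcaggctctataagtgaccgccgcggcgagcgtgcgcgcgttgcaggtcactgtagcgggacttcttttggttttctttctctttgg
The BAMBI window (chr10:28677271-28677570, plus strand) holds GGCGCC 3 times, with first bases at -209, -196 and -181 from the start. The windows of ID1 (chr20:31605039-31605338, plus strand) and ID3 (chr1:23559452-23559751, minus strand) hold none. SMAD1 has 2 windows with 2 matches each, and the windows of the other 8 genes hold no match. Sequence outside these windows was not searched, so a gene without a match may hold the element farther away. Of 35116 RefSeq windows of this length, 19.2% hold GGCGCC at least once and 0.871% hold it 3 or more times. These shares cover windows of any GC content. GTCT occurs in 84.0% of all windows, and in the 3 printed windows it occurs 4 times in BAMBI, 3 times in ID1 and 2 times in ID3. GC content was 80.0% in the BAMBI window, 62.7% in that of ID1 and 59.7% in that of ID3, against a median of 58.7% over all windows. CG dinucleotides numbered 47, 22 and 27 in the same order, against a median of 14. A match is a run of letters and not a site shown to be bound.

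The expression unit was FPKM, a density of reads scaled to exon length and to library size, given with the 95% interval that Cufflinks attaches to each value within 1 library. That interval does not cover variation between cultures, and as no condition had a replicate no difference was tested and no p-value is given. The deposited values hold no read counts, and the steps between low values gave an estimated 1770000 reads at Day 0, the shallowest library, and up to 3650000 in the untreated mutant line, with a median of 3200000. These numbers take the commonest step among low values as 1 read (72 of 148 values), but 16 values lay at 0.5 of that step, and if those were single reads every read number given here would be 2 times as large and every 3-read floor 0.5 times as large. A gene counted as called up where the treated library exceeded 4 FPKM and was over 2 times the reference, and as called down where the reference exceeded 4 FPKM and the treated library was under 0.5 times it. The words higher and lower give the direction only, whether or not a gene was called. KDM6B, part of which is the transgene, stood at 3.45 FPKM at Day 0, at 158.2, 212.5, 247.9 and 282.2 FPKM at Days 1 to 4, and at 2.40 and 454.2 FPKM in the mutant line without and with Dox. These values do not separate the transgene from the endogenous gene. The 7 pluripotency markers POU5F1, NANOG, SOX2, DNMT3B, TDGF1, LIN28A and ZFP42 were above 1 FPKM in all 7 libraries, so the defining markers of the labelled cells were present.

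Among the ID genes, ID3 and ID4 were called up against Day 0 from Day 2 to Day 4 of JMJD3c induction, whereas ID1 and ID2 were not called on any day. At Day 4 ID3 was 2.88 times and ID4 4.53 times its Day 0 value. In the mutant line ID3 was 1.66 times as high with Dox, under the threshold but with intervals apart. ID4 was below 4 FPKM in both libraries of that line and could not be called there. ID1 was the most abundant of the 4 at Day 0, and from Day 1 that place was taken by ID3. The bar plots of all 10 genes give the values behind these statements. In bulk RNA, fewer cells expressing a gene and less RNA per cell cannot be told apart.

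**Figure D1:**
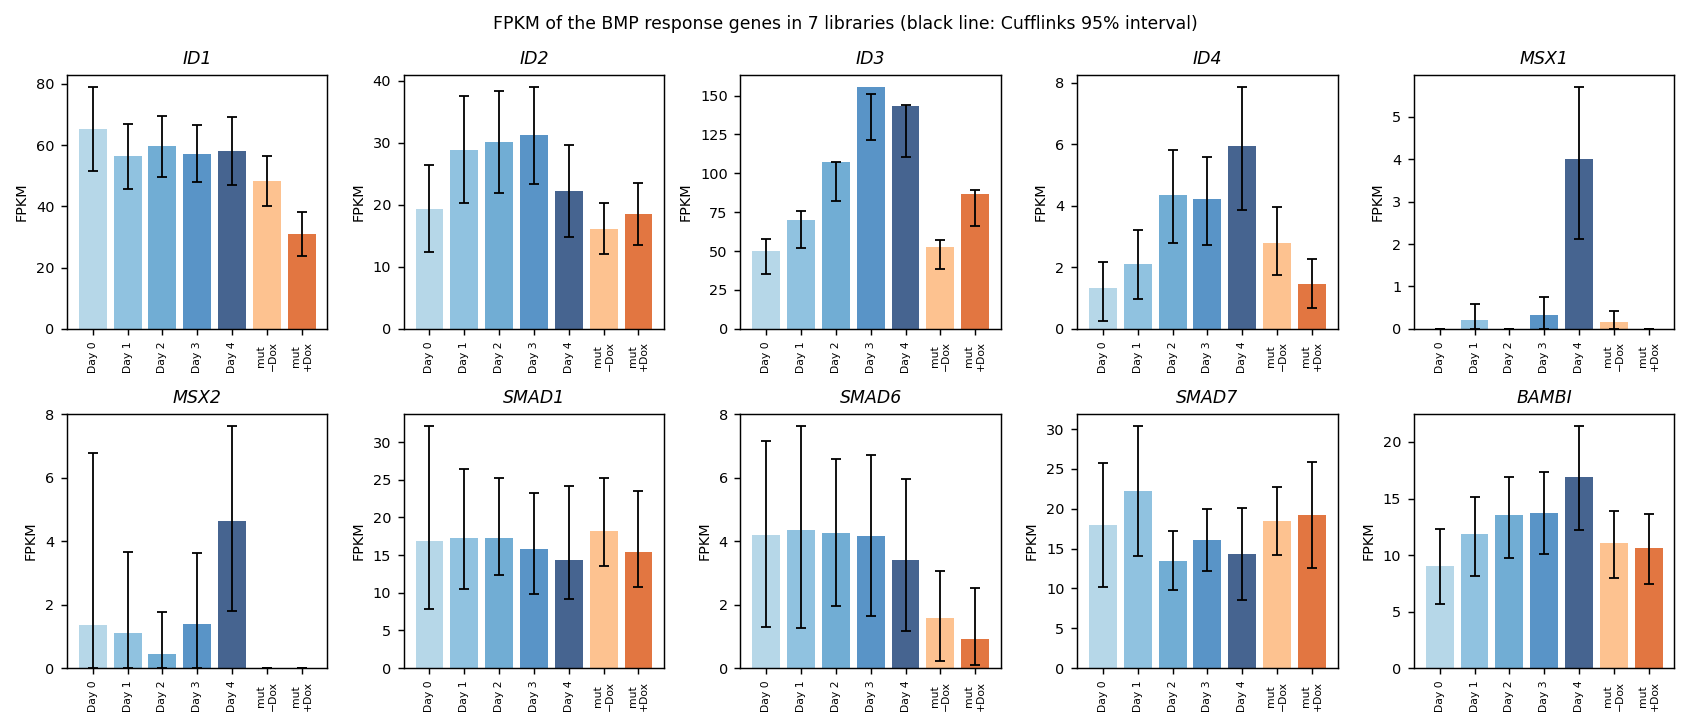
FPKM of each of the 10 genes (vertical axis, its own scale in each panel) in the 7 libraries: JMJD3c-hESCs at Day 0 to Day 4 (blue) and JMJD3c mut-hESCs without and with Dox (orange). Bars are deposited values of 1 library each and black lines the Cufflinks 95% intervals. ID3 climbs from 49.9 to 155.7 FPKM by Day 3, MSX1 is at or near 0 until Day 4, and SMAD1 stays between 14.4 and 18.2 FPKM.

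ID3 (ENSG00000117318, chr1:23884409-23886285, hg19, minus strand) was listed at 49.9, 70.1, 107.2, 155.7 and 143.6 FPKM at Days 0, 1, 2, 3 and 4, and at 52.3 and 86.8 FPKM in the mutant line without and with Dox. The untreated libraries of the 2 lines lay close together, Days 2 to 4 were the 3 highest libraries, and the Dox-treated mutant line lay between Day 1 and Day 2. Relative to Day 0, Days 2, 3 and 4 were 2.15, 3.12 and 2.88 times as high, and the log2(FPKM + 1) difference of Day 4 was 1.51. The intervals at Day 0 (35.0 to 57.5 FPKM) and Day 4 (110.2 to 144.0 FPKM) were apart. In the mutant line the ratio was 1.66, under the threshold of 2, with intervals that were also apart (38.8 to 56.8 and 65.8 to 89.0 FPKM). The Day 3 value of ID3 lies above its own interval of 121.5 to 151.2 FPKM, the single value of the 70 for these genes that lies outside. Its Day 2 and Day 4 values lie just under their upper bounds (107.18 and 143.97 FPKM).

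ID4 (ENSG00000172201, chr6:19837617-19840915, plus strand) was listed at 1.31, 2.10, 4.35, 4.21 and 5.94 FPKM over the 5 days, and at 2.80 and 1.46 FPKM in the mutant line without and with Dox. Days 2 to 4 were the 3 highest libraries, and the Dox-treated mutant line was close to Day 0. The ratio to Day 0 was 3.31, 3.21 and 4.53 at Days 2, 3 and 4, and the Day 4 difference was 1.59 on the log2(FPKM + 1) scale. The intervals at Day 0 (0.240 to 2.16 FPKM) and Day 4 (3.85 to 7.88 FPKM) were apart, and about 8.55 and 53.0 reads stood behind these values. The untreated libraries differed by a ratio of 2.14, so that Day 4 was 2.12 times the untreated mutant line, with overlapping intervals. Against that library ID4 was not called at Days 2 and 3, where the ratios were 1.552 and 1.501. ID4 is overlapped on the opposite strand by LNC-LBCS, which was not listed in the files.

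ID1 (ENSG00000125968, chr20:30193086-30194318, plus strand) was listed at 65.2, 56.3, 59.5, 57.2 and 58.0 FPKM at Days 0 to 4, and at 48.4 and 30.9 FPKM in the mutant line without and with Dox. The 5 libraries of the JMJD3c line spanned a ratio of 1.16 from highest to lowest, and the Dox-treated mutant line was the lowest of the 7. The ratio with Dox was 0.889 at Day 4 in the JMJD3c line, with overlapping intervals. In the mutant line it was 0.638, which is not below 0.5, although the intervals (40.2 to 56.6 and 23.7 to 38.0 FPKM) were apart.

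ID2 (ENSG00000115738, chr2:8818975-8824583, plus strand) was listed at 19.4, 28.9, 30.1, 31.2 and 22.3 FPKM at Days 0 to 4, and at 16.1 and 18.6 FPKM in the mutant line. Days 1 to 3 were above the other 4 libraries, Day 4 was close to Day 0, and the highest day was 1.61 times the lowest. ID2 overlaps ID2-AS1 on the opposite strand and has a processed pseudogene, ID2B, neither of which was listed in the files. The library kit marked strand, but whether strand was used in counting is not given in the sources used here, so reads of antisense genes may be included.

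**Figure D2:**
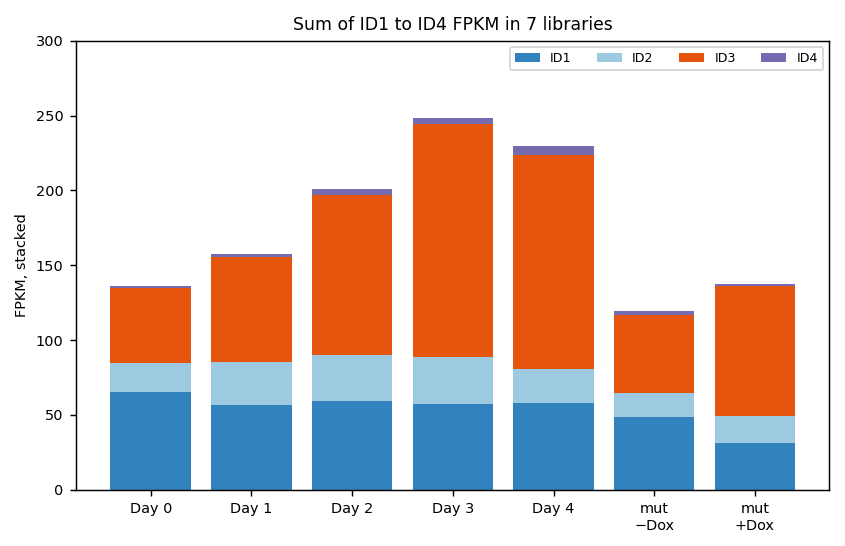
FPKM of ID1, ID2, ID3 and ID4 stacked in each of the 7 libraries (1 library per bar). The summed level is highest at Day 3 (248.4 FPKM), and the ID3 segment is larger than the ID1 segment in every library but Day 0.

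The summed level of the 4 ID genes was 135.8, 157.4, 201.2, 248.4 and 229.9 FPKM at Days 0 to 4, and 119.6 and 137.7 FPKM in the mutant line without and with Dox. ID3 made up 36.7% of the sum at Day 0 and 62.5% at Day 4, while the share of ID1 was 48.0% and 25.2%. In the mutant line the share of ID3 was 43.7% without and 63.1% with Dox, and that of ID1 was 40.4% and 22.4%. The ratio of ID3 to ID1 thus went from 0.764 to 2.47 in the JMJD3c line and from 1.08 to 2.81 in the mutant line, with ID3 higher in the former and both ID3 higher and ID1 lower in the latter. The stacked bars of the ID genes show the change in make-up together with the sum.

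Both MSX genes were called up at Day 4 only, and both were listed at 0 in the Dox-treated mutant line. MSX1 (ENSG00000163132, chr4:4861393-4865663, plus strand) was listed at 0, 0.216, 0, 0.335 and 4.02 FPKM at Days 0 to 4, and at 0.157 and 0 FPKM in the mutant line without and with Dox. In estimated reads these values were 0, 1.00, 0, 2.00 and 17.0, and 0.997 and 0, so that every library other than Day 4 held an estimated 2 reads or fewer. The Day 4 value lay just over the cutoff of 4 FPKM, with an interval of 2.12 to 5.71 FPKM. A count of 3 reads would be 0.972 FPKM at Day 0 and 0.538 FPKM in the Dox-treated mutant line, and no ratio is given against a value of 0.

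MSX2 (ENSG00000120149, chr5:174151536-174157896, plus strand) was listed at 1.35, 1.10, 0.457, 1.40 and 4.63 FPKM at Days 0 to 4, and at 0 FPKM in both libraries of the mutant line. Day 4 was the highest library, and the 2 lines already differed without Dox. Day 4 was 3.42 times Day 0, but their intervals overlapped (0 to 6.77 and 1.81 to 7.63 FPKM). The Day 0 value rested on about 4.79 reads and the Day 4 value on about 22.4 reads. A processed pseudogene of MSX2 on chromosome 17, MSX2P1, was not listed in the files, so how reads were shared with it is not known.

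SMAD1 (ENSG00000170365, chr4:146402346-146479231, plus strand), which carries the signal from the receptor to DNA, had the smallest range of the 10 genes over the 7 libraries, while ID1 (1.16 times) had a smaller one than SMAD1 (1.20 times) over the 5 days of the JMJD3c line. Its values were 16.8, 17.3, 17.3, 15.8 and 14.4 FPKM at Days 0 to 4, and 18.2 and 15.4 FPKM in the mutant line without and with Dox. The highest of the 7 was 1.26 times the lowest, and all intervals overlapped. SMAD1 holds SMAD1-AS1 and SMAD1-AS2 on the opposite strand within its bounds, and neither was listed in the files.

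Among the feedback inhibitors, BAMBI was higher on each successive day without being called, and SMAD7 was not called in any comparison. SMAD6 was lower in both libraries of the mutant line than in all 5 of the JMJD3c line. BAMBI (ENSG00000095739, chr10:28966271-28971868, plus strand), a receptor-like protein that lacks the kinase, was listed at 9.06, 11.9, 13.5, 13.7 and 16.9 FPKM at Days 0 to 4, and at 11.1 and 10.6 FPKM in the mutant line without and with Dox. It was the only one of the 10 genes higher at every step from Day 0 to Day 4, which held for 3.32% of 10778 genes with more than 4 FPKM in at least 1 of those 5 libraries. Day 4 was 1.87 times Day 0, a log2(FPKM + 1) difference of 0.83. The upper bound at Day 0 (12.27 FPKM) just passed the lower bound at Day 4 (12.24 FPKM).

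SMAD7 (ENSG00000101665, chr18:46446223-46477081, minus strand), which blocks the receptors and recruits ubiquitin ligases to them, was listed at 17.9, 22.2, 13.4, 16.1 and 14.3 FPKM at Days 0 to 4, and at 18.5 and 19.2 FPKM in the mutant line without and with Dox. Day 1 was the highest and Day 2 the lowest library, 1.66 times apart, with no order over the days. SMAD6 (ENSG00000137834, chr15:66994566-67074338, plus strand), which acts mainly on the BMP branch, was listed at 4.21, 4.35, 4.26, 4.17 and 3.41 FPKM at Days 0 to 4, and at 1.57 and 0.905 FPKM in the mutant line. All 5 libraries of the JMJD3c line lay above both of the mutant line. The untreated mutant line was 0.373 times Day 0 and was called down, with overlapping intervals (0.238 to 3.07 and 1.30 to 7.17 FPKM). An RNA gene on the same strand within SMAD6, ENSG00000274995, was not listed in the files.

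Counted over the 10 genes, all of which passed 4 FPKM in Day 0 or Day 4, 4 were called up at Day 4 against Day 0, ID3, ID4, MSX1 and MSX2, where 5.87% of 10247 genes tested were called up. None was called down, against 7.56% of the genes tested. ID4, MSX1 and MSX2 were below 4 FPKM at Day 0, so they passed the cutoff only through Day 4. They could be called up there but not down. In 3 of the 4 genes called up, all but MSX2, the intervals were also apart, and 2.52% of the genes tested met both conditions. At Day 1 no gene was called in either direction (3.48% up and 3.27% down among all genes tested). At Day 2 and again at Day 3, ID3 and ID4 were called up (3.9% and 4.73% of genes tested up) and none was called down (4.24% and 4.48%). ID4 passed the cutoff there only through the later library. These comparisons share the Day 0 library, so they are not independent of one another. The median log2(FPKM + 1) difference of the 10 genes from Day 0 was 0.29, 0.03, 0.22 and 0.51 at Days 1, 2, 3 and 4, and that of the genes tested was -0.03, -0.05, -0.01 and -0.06. From Day 3 to Day 4 MSX1 and MSX2, which passed the cutoff only through Day 4, were called up (2.01% of genes tested).

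In the mutant line none of the 10 genes was called up or down with Dox, where 1.25% of 9736 genes tested were called up and 1.53% down. Only 6 of the 10 passed the cutoff in either library, and ID4, MSX1, MSX2 and SMAD6 could not have been called there. The intervals were apart for ID3, which was higher, and for ID1, which was lower, conditions met by 1.47% and 1.68% of the genes tested. The median difference was -0.13 for the 10 genes and 0.00 for the genes tested. Differences with Dox in both lines are plotted side by side for each gene.

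**Figure D3:**
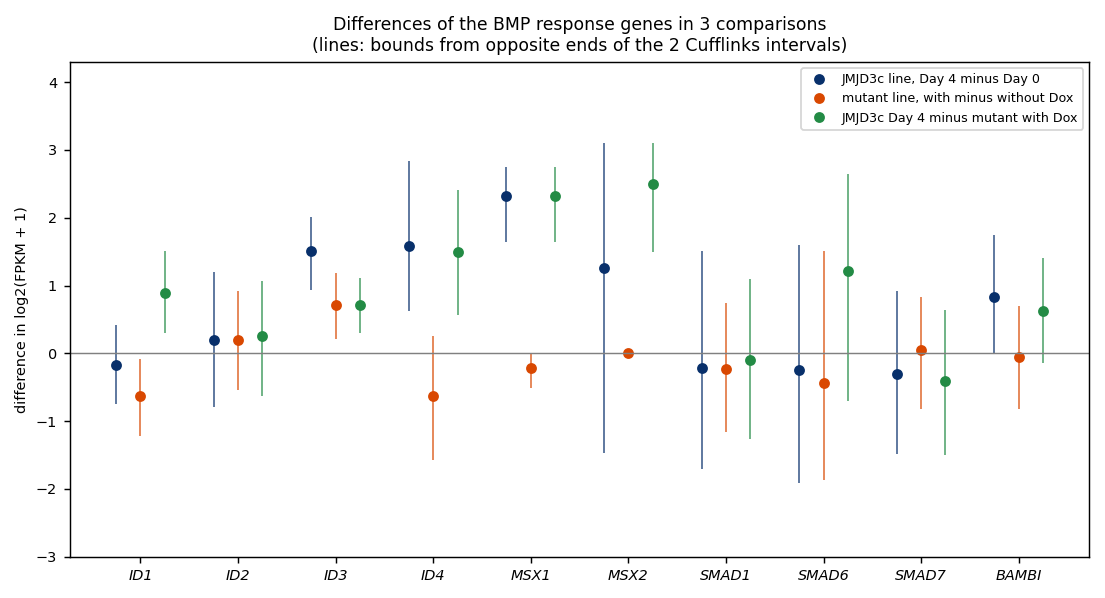
Difference in log2(FPKM + 1) for each of the 10 genes in 3 comparisons: Day 4 against Day 0 in JMJD3c-hESCs, with against without Dox in JMJD3c mut-hESCs, and the active against the inactive form at Day 4 of Dox. Points come from 1 library each side and lines join the extremes that the 2 Cufflinks 95% intervals allow, and MSX1, at 0 at Day 0, has a difference of 2.33 that depends on the pseudocount (1.00 with a pseudocount of 4, where ID3 has 1.45). The bounds of a gene listed at 0 are both 0, which adds nothing to its lines.

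Between the 2 Dox-treated lines at Day 4, ID4, MSX1 and MSX2 were called up in the line with active JMJD3c (6.56% of 9999 genes tested) and none was called down (3%). ID4 was 4.08 times the value of the mutant line, and both MSX genes were listed at 0 in the latter. All 3 were below 4 FPKM in the mutant line, passed the cutoff only through the JMJD3c line and could not have been called down. ID1 and ID3 were 1.88 and 1.65 times the mutant value, under the threshold, although their intervals were apart. With the 3 called genes, the intervals of 5 of the 10 were thus apart with the higher value under active JMJD3c, against 7.57% of the genes tested. SMAD6 was 3.77 times the mutant value but below 4 FPKM, BAMBI was 1.59 times, ID2 1.20 times, SMAD1 0.932 times and SMAD7 0.742 times, all with overlapping intervals. Against the untreated mutant line, ID3 (2.74 times), ID4, MSX1 and MSX2 were called up at Day 4 (7.05% of genes tested) and none was called down (3.9%). Of these, ID4, MSX1 and MSX2 were again below 4 FPKM in the mutant line. These comparisons share the Day 4 library with that against Day 0, and the 2 lines also differed without Dox, where SMAD6 was called down in the mutant line (7.01% of genes tested) and none was called up (2.78%). SMAD6 passed the cutoff there only through Day 0.

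Genes of the rest of the pathway were taken from 8 lists. At Day 4 against Day 0, where 5.87% of genes tested were called up and 7.56% down, 3 of 13 BMP ligands were above 4 FPKM in either library and could be called, and 1 was called up. Of 10 receptors and co-receptors 5 could be called and none was, and of 13 secreted antagonists 6 could be called and 3 were called up. None of these genes was called down, which needs more than 4 FPKM at Day 0. Of the 6 SMAD transducers (5 above the cutoff) and the 12 SMAD regulators (all above it), lists that include SMAD1, SMAD6, SMAD7 and BAMBI, none was called in either direction, and their median differences were -0.28 and -0.18. Of 16 other genes that BMP induces in various cells, TBX3 alone was called up, and only it was above 4 FPKM. Of 10 helix-loop-helix partners and targets of ID proteins 4 could be called and none was, and of 7 homeobox partners of MSX the 1 that could be called was MSX2 itself. Every gene of the lists called up here was below 4 FPKM at Day 0 and passed the cutoff only through Day 4. A gene admitted that way can only be called up, so these counts follow in part from the cutoff.

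The ligand was BMP2, a secreted BMP, listed at 0.992, 1.10, 1.46, 3.16 and 6.40 FPKM at Days 0 to 4 and at 0.802 and 0.642 FPKM in the mutant line without and with Dox. It was 6.45 times Day 0 at Day 4, with intervals apart. BMP4, a ligand expressed in hESCs, stood at 5.48, 10.2, 7.43, 6.76 and 6.75 FPKM over the days. In the mutant line BMP4 was called down, from 5.16 to 2.08 FPKM, with overlapping intervals, and the antagonist CHRDL1 was called down from 7.80 to 3.87 FPKM. No gene of the 8 lists was called up there.

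**Figure D4:**
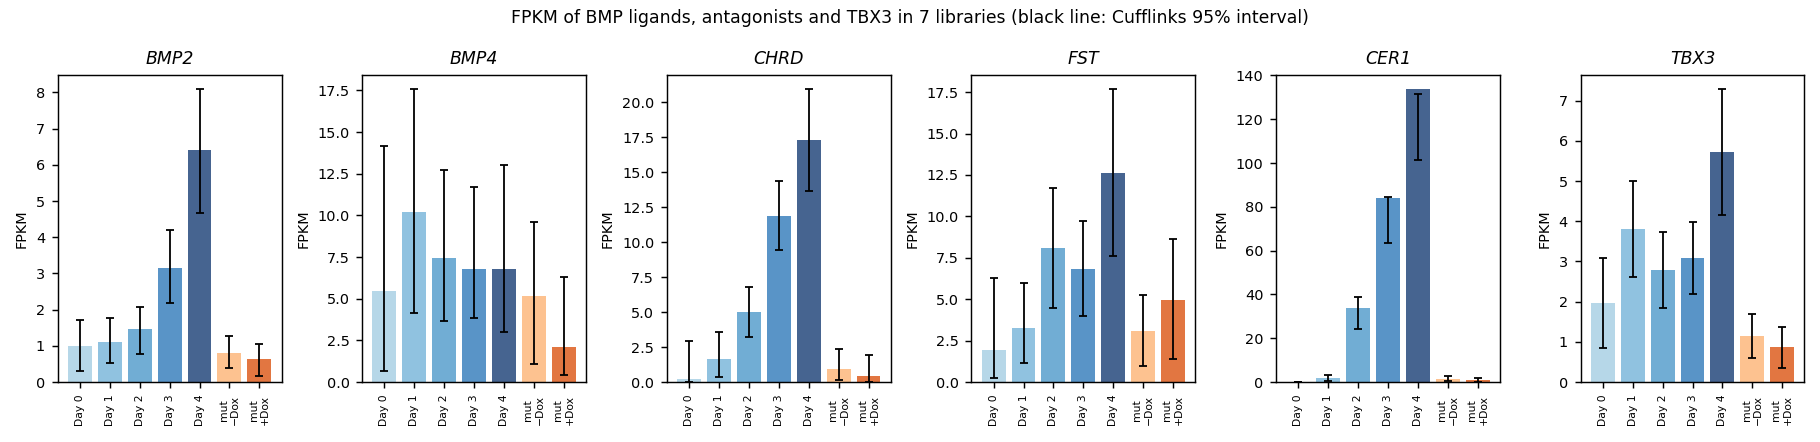
FPKM of the ligands BMP2 and BMP4, the antagonists CHRD, FST and CER1, and the transcription factor gene TBX3 (vertical axis, its own scale in each panel) in the 7 libraries, with Cufflinks 95% intervals as black lines. BMP2, CHRD, CER1 and TBX3 are highest at Day 4, and CER1 reaches 133.7 FPKM from 0 at Day 0.

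The 3 antagonists were CHRD (chordin) and FST (follistatin), which bind ligands outside the cell, and CER1, a secreted inhibitor of BMP, Nodal and Wnt. CHRD was listed at 0.241, 1.65, 4.99, 11.9 and 17.3 FPKM at Days 0 to 4, FST at 1.94, 3.24, 8.08, 6.83 and 12.6 FPKM, and CER1 at 0, 1.85, 34.0, 84.1 and 133.7 FPKM. All 3 were highest at Day 4, and all were called up from Day 2. The Day 4 value of CER1 lies above its own interval of 101.3 to 131.7 FPKM. In the mutant line without and with Dox, CHRD stood at 0.935 and 0.423 FPKM, FST at 3.10 and 4.98 FPKM, and CER1 at 1.62 and 0.924 FPKM. TBX3, a T-box repressor, was listed at 1.96, 3.81, 2.78, 3.09 and 5.71 FPKM at Days 0 to 4 and at 1.15 and 0.860 FPKM in the mutant line. Its Day 4 value was 2.91 times Day 0. Against the Dox-treated mutant line, BMP2, BMP4, CHRD, FST, CER1, TBX3 and the receptor genes ACVR1 (2.05 times) and RGMB (2.28 times) were called up at Day 4. Of genes that could be called, these were 2 of 3 ligands, 2 of 6 receptors, 3 of 5 antagonists and TBX3, against 6.56% of genes tested. BMP2, BMP4, CHRD, CER1, TBX3 and RGMB were below 4 FPKM in the Dox-treated mutant line and passed the cutoff only through Day 4. A gene admitted that way can only be called up, so these counts follow in part from the cutoff. Intervals overlapped for BMP4, FST and ACVR1. ACVR1 stood at 10.4 and 9.91 FPKM at Days 0 and 4, and at 7.49 and 4.82 FPKM in the mutant line without and with Dox. RGMB stood at 6.21 and 7.46 FPKM, and at 5.28 and 3.28 FPKM, in the same order.

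Markers of other cell types moved beside these genes. The summed level of 8 mesendoderm markers (T, EOMES, MIXL1, SOX17, FOXA2, GATA4, GATA6 and CER1) was 5.49 FPKM at Day 0 and 309.8 FPKM at Day 4, and 10.9 and 7.83 FPKM in the mutant line without and with Dox. All 8 were called up at Day 4 against Day 0 (5.87% of genes tested). At Day 0, 5 of the 8 were at 0, and all but MIXL1 (4.43 FPKM) passed the cutoff only through Day 4. CER1, counted above as an antagonist, made up 133.7 FPKM of the Day 4 sum. The summed level of the 7 pluripotency markers was 2295 FPKM at Day 0 and 1618 FPKM at Day 4, and 2138 and 1854 FPKM in the mutant line. All 7 were lower at Day 4 than at Day 0. SOX2 (0.486 times) and DNMT3B (0.473 times) were called down with intervals apart, where 7.56% of genes tested were called down. In the mutant line all 7 were also lower with Dox, and none was called. The sum of 10 amnion or trophoblast markers lay between 4.25 and 7.39 FPKM in all libraries, with none above 4 FPKM at Day 0 or Day 4, and HAND1 was listed at 0 in all 7. Within that sum 4 genes were higher and 3 lower at Day 4 than at Day 0. GATA3 went from 0 to 2.68 FPKM and KRT7 from 3.98 to 1.06 FPKM, both with intervals apart. The sum of 7 neural crest or dorsal ectoderm markers was 18.6, 38.7, 36.0, 41.6 and 32.4 FPKM at Days 0 to 4 and 16.9 and 17.7 FPKM in the mutant line. ZIC1 of this list was called up on all 4 days (4.45, 4.41, 5.26 and 3.16 times Day 0), with overlapping intervals at Day 4. Of all genes tested, 3.48%, 3.9%, 4.73% and 5.87% were called up on these days. No other gene of the list was called on these days. The sum of 4 neural markers was 108.7 FPKM at Day 0 and higher on each day up to 168.0 FPKM at Day 4. In the mutant line it was 86.4 and 115.8 FPKM. Most of it was NES, at 106.5 and 161.9 FPKM on Days 0 and 4 and 85.5 and 115.1 FPKM in the mutant line. PAX6 of this list was called up at Days 1, 2 and 4 (4.32, 2.89 and 2.66 times Day 0), with overlapping intervals each time. It was called down from Day 2 to Day 3. No other gene of the list was called in these comparisons. ZIC1, PAX6, NES, GATA3 and KRT7 were named after their values were seen. The sum of 5 fibroblast markers lay between 92.7 and 166.2 FPKM, with 2 of the 5 at 0 in every library. Their part in the values of the 10 genes was not tested.

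For the 5 genes called at least once, the most similar profiles over the 7 libraries were sought among 10878 genes, by the root mean square difference between centred log2(FPKM + 1) values. The profile of ID3, whose own standard deviation was 0.602, was nearest to those of CAPN2 (0.157), FOXJ1 (0.170) and MYL5 (0.173). That of ID4 was nearest to DNALI1 (0.119), TMPRSS11E (0.159) and HMCN1 (0.162). MSX1 had PRDM1 (0.241), CD177 (0.254) and IGFBP7 (0.271) nearest, and MSX2 had FAM65A (0.275), INTU (0.312) and CCKBR (0.315). SMAD6, which separated the 2 lines, was nearest to CTSF (0.0697), RPS15 (0.0846) and COX6A1P2 (0.114), which were also lower in both libraries of the mutant line than in all 5 of the JMJD3c line. These distances describe 7 libraries and carry no test.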

How the data were processed

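RNA from 7 libraries, 1 per condition, was selected for poly(A), converted with a directional kit and sequenced in single-end reads of 150 bases. The authors mapped reads to hg19 with TopHat2 2.0.13 and calculated FPKM with Cufflinks 2.1.1, and deposited FPKM per gene with the lower and upper bounds of the Cufflinks interval. The submitters' processing notes also name CASAVA 1.4. No further normalization and no filter were applied here, and 35 genes marked as having too little data were kept.

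Ratios used the deposited FPKM. Log2 differences used FPKM + 1, which understates changes of low genes. The percentages beside the counts refer to genes with more than 4 FPKM in either library compared. The 10 genes were all named, together with pathway genes called in the comparison described (at most 4 each way) and the 3 nearest profiles of each called gene. The genes and lists were chosen with earlier results of these data known. Groups came from sample titles.

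Depth was estimated from single-exon genes (253), whose low FPKM values fall on whole-read steps when 200 bases are subtracted from transcript length. Read numbers are estimates that another reading of these steps would change 2-fold, and floors of 3 reads cover counting error only. Overlapping genes came from GENCODE release 44 on GRCh37, the hg19 assembly. Promoter windows came from RefSeq on GRCh38.p14, and no coordinates were converted. Python 3.11.15, numpy 2.4.6, pandas 2.3.3 and matplotlib 3.10.9 were used, and the calls were tested on simulated data. Alternatives changed the cutoff, pseudocount, scaling, entries sharing a name, use of intervals, treated library and reference. The ChIP and qRT-PCR data of the study were not analysed here.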

Additional observations from a re-analysis of the deposited data

Results flagged for a closer look

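For 4 genes the value with Dox lay on opposite sides of the value without Dox in the 2 lines, and with 1 library per condition the difference between lines was not tested. The log2(FPKM + 1) difference with Dox in the JMJD3c line minus that in the mutant line was 2.54 for MSX1 (2.33 and -0.21), 2.22 for ID4 (1.59 and -0.63), 0.89 for BAMBI (0.83 and -0.06) and -0.37 for SMAD7 (-0.31 and 0.06). The MSX1 value in the mutant line goes from about 0.997 reads to 0. Cufflinks intervals overlapped in the mutant line for ID4, BAMBI and SMAD7, and in the JMJD3c line for BAMBI and SMAD7.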

How the results depend on the processing

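No paired analysis was possible because no condition has a second library, and for the same reason no library could be left out. At Day 4 against Day 0, 4 genes were called up. That number was 2 with Day 3 as the treated library, and 2 with the midpoint of each Cufflinks interval in place of the FPKM, an alternative added after seeing the data, under which MSX1 fell below the cutoff and MSX2 below the ratio of 2. That number was 3 when intervals also had to be apart, without MSX2, and 5 under upper quartile scaling, which added BAMBI. Without an FPKM cutoff, 1 gene was up at Day 1 (MSX1), 1 was down at Day 2 (MSX2) and 1 was down in the mutant line with Dox (MSX1), where 0 were called before. A cutoff of 1 FPKM gave 1 gene down at Day 2 (MSX2), and the untreated mutant line as reference gave 1 gene up at Day 1 (SMAD6). The cause was not tested. Upper quartile scaling moved the median of all genes tested by 0.10 to 0.13 (log2) for Days 1 to 4 against Day 0. The Day 4 median of the 10 genes (0.51) was 0.63 under this scaling (0.06 for the genes tested), 0.67 against the untreated mutant line, 0.29 with interval midpoints and 0.19 over members above 1 FPKM on average. The Day 3 median (0.22) was 0.03 over those members, and the Day 2 median (0.03) was 0.39 against the untreated mutant line. Against that line ID4 lost its calls at Days 2 and 3 and SMAD6 was called up at Days 1, 2 and 3 (2.77, 2.71 and 2.65 times). Of 420 single-gene differences, 13 moved beyond the Cufflinks bounds, all of MSX1 or MSX2, and 18 changed sign, none of them of a gene called in that comparison. Of these 18, 11 came from the untreated mutant line as reference, among them SMAD6 at Day 4 (-0.24 to 0.78), ID1 at Day 4 (-0.17 to 0.26), ID4 at Day 1 (0.42 to -0.29) and MSX2 at Day 2 (-0.69 to 0.54). At the estimated depth, MSX1 and MSX2 before Day 4 rest on fewer than 10 reads.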
